A study of Mus musculus with 8 samples.

Results

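Genes that drive and end mitosis were followed from a dividing neural stem cell line into the astrocytes made from it. The 10 genes were Ccna2, Ccnb1, Ccnb2, Cdk1, Plk1, Aurka, Cdc20, Ube2c, Foxm1 and Cdca3, taken with every probe that carries their symbol. They had 16 probes among the 24613 probes and 16449 gene symbols of the array. The platform annotation named 14 of the probes, and the other 2, both of Ccnb1, were named through their transcript accession and a RefSeq gene table.

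RNA was hybridised to 8 Illumina mouse bead arrays of 1 colour. Of these, 4 held NS5 cells, a mouse neural stem cell line that grows in culture with added growth factors. The other 4 held astrocytes obtained from NS5 cells by withdrawing the growth factors and giving 5% fetal calf serum for 3 days. The labels name no transgene, deletion or other agent, and the 4 arrays of each group are called biological replicates. Both groups come from 1 cell line, so the p-values measure the spread between replicates of that line.

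Entry into mitosis is driven by the kinase CDK1 bound to cyclin A2 or to a B-type cyclin, and the Polo and Aurora kinases act beside it in building the spindle. Mitosis ends when the anaphase-promoting complex (APC/C), a ubiquitin ligase switched on by CDC20 and fed by the conjugating enzyme UBE2C, marks the cyclins for destruction. Most of these genes are transcribed in the G2 phase by complexes that hold MuvB proteins, B-MYB and FOXM1, and they fall silent in cells that leave the cycle. In neural stem cells they are markers of division.

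The promoters of the members are shown because genes transcribed in G2 often carry a CHR element (cell cycle genes homology region), to which MuvB complexes bind, next to CCAAT boxes, the site of the factor NF-Y. A promoter of 250 bases before and 50 bases after the annotated start was held for 8 of the 10 members in RefSeq (GRCm38.p6), and none was used for Ccna2 and Foxm1. The letters TTTGAA, the core of the CHR, were searched on both strands, as were the letters CCAAT. In the stretches below, from base -110 to base 20 around the start, each match is in capitals, and a match on the opposite strand reads ATTGG or TTCAAA.
Ccnb1, chr13:100786467-100786596, minus strand: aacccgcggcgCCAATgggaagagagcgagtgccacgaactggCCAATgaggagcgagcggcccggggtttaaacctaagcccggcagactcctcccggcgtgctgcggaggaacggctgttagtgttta
Ccnb2, chr9:70421535-70421664, minus strand: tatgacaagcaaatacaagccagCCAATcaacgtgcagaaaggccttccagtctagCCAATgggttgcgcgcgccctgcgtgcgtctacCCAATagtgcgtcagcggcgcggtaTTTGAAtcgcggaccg
Cdk1, chr10:69352893-69353022, minus strand: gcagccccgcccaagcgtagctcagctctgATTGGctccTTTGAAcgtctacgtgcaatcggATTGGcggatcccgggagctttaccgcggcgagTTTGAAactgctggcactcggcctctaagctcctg
Cdc20, chr4:118437324-118437453, minus strand: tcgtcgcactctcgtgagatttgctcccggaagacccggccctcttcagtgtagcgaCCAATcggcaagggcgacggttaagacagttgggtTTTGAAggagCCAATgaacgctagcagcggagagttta
Ube2c, chr2:164769819-164769948, plus strand: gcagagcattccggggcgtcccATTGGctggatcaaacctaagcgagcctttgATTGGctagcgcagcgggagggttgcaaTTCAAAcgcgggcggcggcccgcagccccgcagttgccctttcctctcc

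TTTGAA was present in 7 of the 8 member promoters, against 17.9% of all 32851 promoters of the same length, of which a gene can have several. CCAAT was present in all 8, against 37.4%, and at least 2 copies in 7 of 8, against 11.7%. Both a TTTGAA and at least 2 CCAAT boxes stood in 6 of 8 member promoters and in 2.09% of all promoters. The match of TTTGAA nearest to the start lay at base -15 in Cdk1, -18 in Cdc20, -29 in Ube2c, 5 in Ccnb2, 31 in Plk1, 33 in Aurka and 31 in Cdca3. Ccnb1 was the promoter without these 6 letters. In Ccnb1, Ccnb2, Cdk1, Aurka and Ube2c, 2 neighbouring CCAAT boxes of the same orientation began 31 to 33 bases apart, a spacing found in 0.795% of all promoters and chosen for the search after the members' sequences had been seen. In Ube2c a CCAAT and an opposite ATTGG overlapped at bases -186 to -179. A match of letters is a description of these windows and not a measured binding site.

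**Figure D1:**
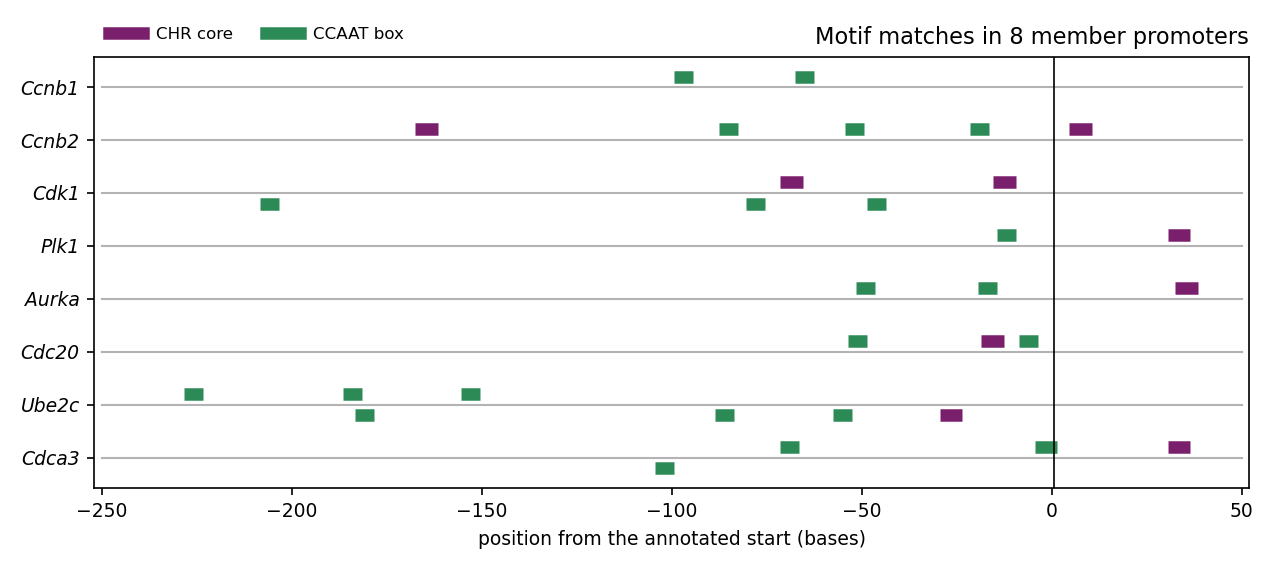
Positions of the CHR core (purple) and of CCAAT boxes (green) in the promoters of 8 members, in bases from the annotated start (vertical line), over the window of 250 bases before and 50 bases after it. Marks above a gene's line are on the strand of the gene and marks below it on the opposite strand. TTTGAA is seen in 7 of 8 promoters and CCAAT in all 8.

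Signals below are quantile-normalized probe intensities in scanner units, from which the authors' scanner output had already lost its background, so that a value can fall below 0. A probe was taken as above background on an array when its intensity as deposited, before the quantile step, exceeded a limit estimated from the negative signals, 35.4 to 39.8 units, and 46.0 to 47.9% of probes did so. Fold changes compare astrocytes with NS5 cells in log2(signal + 99.01), a scale on which dim probes appear to change less than they do. The percent of NS5 signal kept is each astrocyte signal, with no such addition, over the mean of the 4 NS5 signals. A probe not above background on any astrocyte array has only an upper bound of that percent, and its fold is given as "at least" on the log2(signal + 99.01) scale, where bounds are smaller than on the plain signals. Brightness is not compared between probes, since it depends on the probe. In bulk RNA, fewer dividing cells and less RNA per cell cannot be told apart.

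The mitotic genes with a usable probe gave clear signals in NS5 cells. In astrocytes most were close to or below background, while Cdk1 (70.2 to 107 units) and Cdca3 (67.8 to 82.7) stayed above it on all 4 arrays. Plk1 (37.2 to 58.0) also did by its intensities as deposited, on array 1 by the least. Above background on all 4 NS5 arrays were 12 member probes, from 9 of the 10 genes. Each astrocyte array that was not above background was counted at its upper bound, a rule set after the values were seen. So counted, 9 of these 12 kept under 5% of the NS5 signal, and the median was 2.29%. Of all 10385 probes above background on the 4 NS5 arrays, 0.674% kept under 5% by the same count and the median was 92.8%. The 3 member probes over 5% were the dim ones of Ccna2, Ube2c and Foxm1. Of the 16 member probes, 11 from 8 genes passed the filter on low values, and limma called the 11 lower in astrocytes at an adjusted p under 0.05, where the call lower took in 30.6% of the 12306 probes tested, higher 28.2% and either 58.8%. In each of the 11 the 4 astrocyte arrays lay below the 4 NS5 arrays, as in 28.5% of tested probes. Of those 11, 6 were above background on all 4 NS5 arrays and on no astrocyte array, a pattern shared by 1.92% of tested probes. Such probes, and that of Foxm1, above background on 1 astrocyte array, passed the filter through their NS5 signal alone and had to be lower. These counts thus say nothing about members that did not pass. A log2 fold change of -3 or lower was called for 9 of the 11, and for 0.788% of all tested probes. These 9 were the tested probes of Ccnb1, Cdc20, Cdk1, Plk1, Aurka and Cdca3. All those of Ccnb1 and Cdc20 were among the probes that had to be lower.

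**Figure D2:**
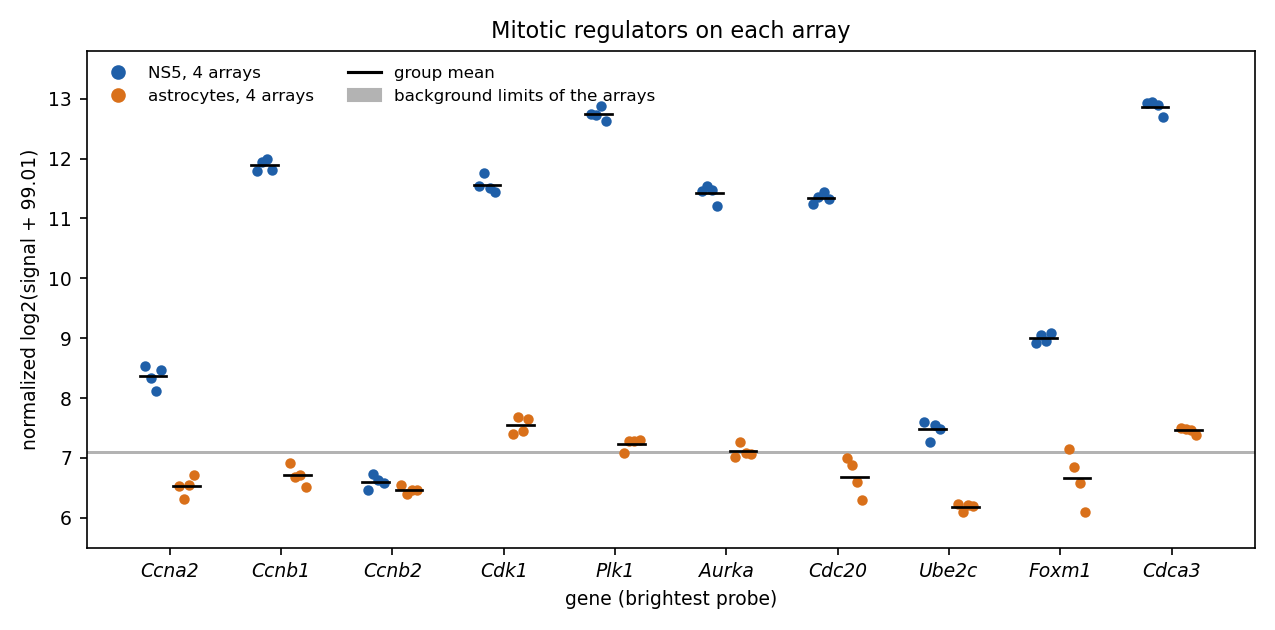
Normalized log2(signal + 99.01) of the brightest probe of each of the 10 genes on 4 NS5 arrays (blue) and 4 astrocyte arrays (orange), with group means as black lines and the background limits of the arrays as a grey band. The NS5 points of 9 genes lie above the band, while Ccnb2 is below it in both groups. Astrocyte points of Cdk1 and Cdca3 lie above the band on all 4 arrays.

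Among the cyclins, Ccnb1, the B-type cyclin that carries CDK1 into mitosis, was brightest on probe ILMN_2659052. Its signals were 3461, 3841, 3985 and 3507 on NS5 arrays 1 to 4, and 22.5, 3.29, 6.40 and -7.36 on astrocyte arrays 1 to 4. The groups did not overlap, and no astrocyte array was above background. Astrocytes kept at most 0.976% of the NS5 signal, and were at least 28.1-fold lower (log2 fold change -5.18 ± 0.09 SE, limma adjusted p = 5.00e-13). Its other probe, ILMN_2753497, ran from 2199 to 2701 in NS5 cells and from -15.7 to 5.25 in astrocytes, so that at most 1.46% was kept, and both probes of this gene were thus free of astrocyte signal above background.

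Ccna2, cyclin A2, which serves both DNA replication and the entry into mitosis, had a dim probe. NS5 signals were 274, 224, 178 and 254, and astrocyte signals were -6.23, -19.2, -5.05 and 6.30. No astrocyte array was above background and the groups lay apart. Because the NS5 signal was low, the bound was wide, with at most 15.5% kept and a fold of at least 2.44 (log2 fold change -1.83 ± 0.11, adjusted p = 1.19e-08). NS5 array 3 was the lowest for this gene, although it was the highest for both probes of Ccnb1.

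Ccnb2, the other B-type cyclin, could not be assessed. Its 1 probe gave -10.4, 7.19, 0.0688 and -3.64 in NS5 cells and -5.11, -14.3, -10.7 and -10.4 in astrocytes. These values overlapped and none was above background in either group, including the dividing cells. Without a filter its log2 difference was -0.13 (adjusted p = 0.328). Its promoter, shown above in part, had 2 matches of TTTGAA and 3 of CCAAT.

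Cdk1, the kinase partner of these cyclins, was one of the members still seen in astrocytes. Its brightest probe, ILMN_2657844, had signals of 2877, 3353, 2830 and 2677 in NS5 cells and of 70.2, 107, 75.6 and 103 in astrocytes. All 4 astrocyte arrays were above background, with arrays 2 and 4 above arrays 1 and 3. The percent kept was 3.03 ± 0.640% (SD, n = 4), and the log2 fold change was -4.01 ± 0.09 (SE), adjusted p = 3.02e-12. A second probe of the gene, ILMN_2698252, exceeded the limit on 2 NS5 arrays, with at most 45.3 units, and on no astrocyte array, with -20.2 to -11.1. It did not pass the filter and allows no fold.

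Plk1, the Polo-like kinase of spindle assembly and cytokinesis, kept a trace of signal. On probe ILMN_1255053 the NS5 signals were 6768, 6667, 7398 and 6234, and the astrocyte signals were 37.2, 57.2, 57.4 and 58.0. As deposited, all 4 astrocyte intensities exceeded the limits, array 1 by the least (39.1 against 37.3), and its normalized signal lay at the limit. The percent kept was 0.775 ± 0.151% (SD, n = 4) and the log2 fold change -5.50 ± 0.08 (SE, adjusted p = 1.25e-13). The other Plk1 probe, ILMN_2682131, was not above background on any array, with -2.94 to 14.1 units over all 8.

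Aurka, the Aurora kinase of centrosomes and spindle poles, gave 2719, 2874, 2760 and 2279 in NS5 cells and 31.2, 55.9, 36.5 and 35.3 in astrocytes. Astrocyte signals lay around the limit, with 2 of the 4 arrays above it. The percent kept was 1.49 ± 0.414% (SD, n = 4), and the log2 fold change was -4.31 ± 0.09 (SE), adjusted p = 1.29e-12. Array 2 was the highest astrocyte array here and for Cdk1, and array 1 the lowest for both and for Plk1.

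Among the regulators of the APC/C, Cdc20, the subunit that activates the complex in mitosis, had 3 probes. On the brightest, ILMN_2612207, NS5 cells had 2332, 2514, 2684 and 2452 units and astrocytes 28.4, 18.5, -1.86 and -20.7. The other probes, ILMN_2717187 and ILMN_1251259, ran from 876 to 1009 and from 809 to 962 in NS5 cells, and from 23.5 to 29.2 and from 13.7 to 33.7 in astrocytes. No astrocyte array was above background on any of the 3. The bounds were at most 1.45%, 3.74% and 4.10% kept, or at least 19.2-fold, 7.86-fold and 7.24-fold lower. The log2 fold changes of -4.65, -3.07 and -3.02 (SE 0.13, 0.07 and 0.08, adjusted p from 2.86e-12 to 1.32e-11) thus differed between probes that were all at background in astrocytes, the brighter probe giving the larger fall.

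Ube2c, the ubiquitin-conjugating enzyme that hands ubiquitin to the APC/C, had 1 dim probe. Its NS5 signals were 94.5, 55.9, 89.1 and 80.2, above background on all 4 arrays, and its astrocyte signals were -24.0, -30.2, -24.5 and -25.4. The groups did not overlap, but the mean over all arrays was under the filter and the gene was not tested in the main fit. The bound was at most 45.2% kept, a fold of at least 1.32. Without a filter it was called lower, at -1.29 ± 0.09 (SE) in log2 and an adjusted p of 4.75e-08. In that fit 13 of the 16 member probes, from 9 of the 10 genes, were called lower, as were 15.8% of all 24613 probes.

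Cdca3, a substrate of the APC/C that in Xenopus is part of a ligase for the CDK1 inhibitor WEE1, was bright in NS5 cells, with 7668, 7756, 7504 and 6524 units. Astrocytes had 82.7, 80.8, 77.1 and 67.8, all above background. The percent kept, 1.05 ± 0.0900% (SD, n = 4), varied least between arrays of all members above background on the 4 astrocyte arrays, and the log2 fold change was -5.40 ± 0.08 (SE, adjusted p = 1.25e-13). Array 4 was the lowest of both groups for this gene.

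Foxm1, the forkhead factor that promotes transcription of G2 genes, had 384, 434, 395 and 445 units in NS5 cells on probe ILMN_1239314. In astrocytes it had 43.1, 16.8, -3.27 and -30.3. Array 1 was above background and the other 3 were not, and the groups did not overlap. The percent kept was 1.59 ± 7.50% (SD, n = 4), a spread far wider than its mean, and 9.17% with the 3 dim arrays at their bound. The log2 fold change was -2.33 ± 0.17 (SE, adjusted p = 9.40e-08). Its second probe, ILMN_1231042, was not above background on any array, with -35.5 to -12.0 units.

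**Figure D3:**
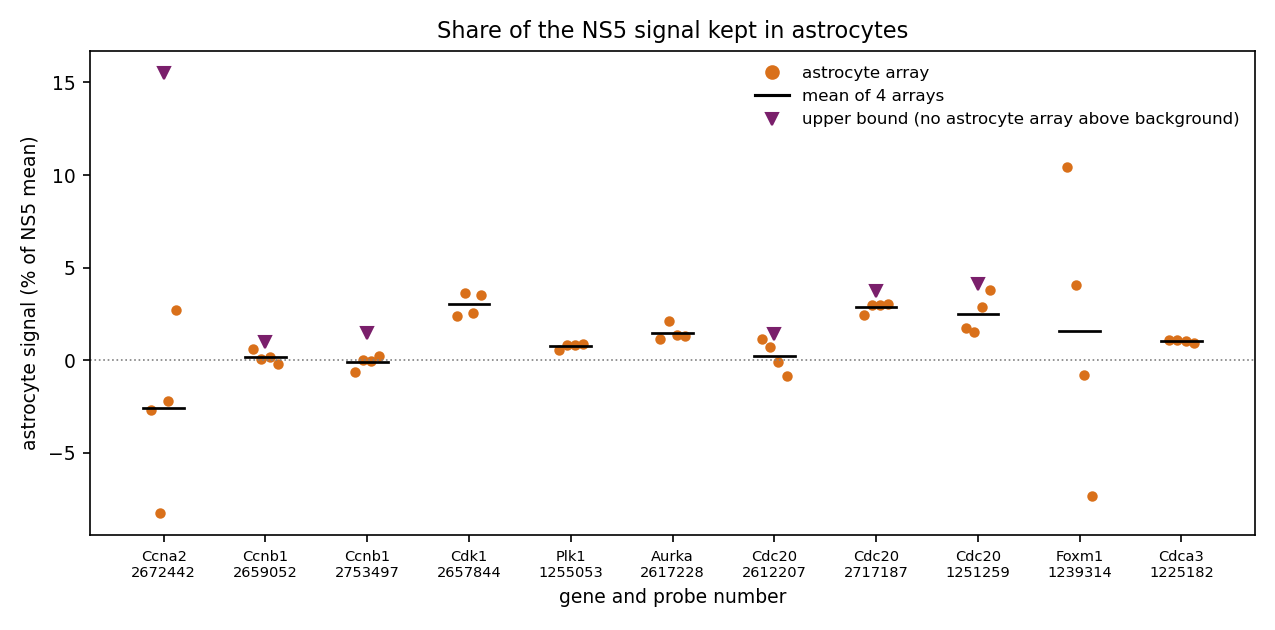
Astrocyte signal in percent of the NS5 mean, for each of the 4 astrocyte arrays (points) and their mean (line), for the 11 member probes that passed the filter; triangles are upper bounds for probes not above background on any astrocyte array. Cdk1 lies highest among the members measured on all 4 astrocyte arrays, at 3.03%, and Foxm1 and Ccna2 have the widest scatter.

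The 3 members above background on all 4 astrocyte arrays were, in order of the percent kept, Plk1 (0.550 to 0.858% over the arrays), Cdca3 (0.920 to 1.12%) and Cdk1 (2.39 to 3.65%), and their arrays did not overlap. The mean astrocyte signals of Plk1 and Cdca3 were 52.5 and 77.1 units. They lay closer together than the size of the astrocyte background limits, 35.4 to 37.6 units. Whether the order of these 2 would hold under another background subtraction was not tested. Aurka, above background on 2 arrays, and Foxm1, on 1, have no place in this order. Ccnb1, Cdc20, Ccna2 and Ube2c have upper bounds alone. The median percent over the 9 members with NS5 signal was 1.55% with every dim array at its bound. With the signals as they stood, also those of the 4 members without astrocyte signal above background, it was 0.775%, and 0.0188% without astrocyte array 1.

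Among NS5 arrays the members varied little. The highest NS5 signal was 1.15 to 1.26 times the lowest for Ccnb1, Cdk1, Plk1, Aurka, Cdc20, Foxm1 and Cdca3, and 1.54 and 1.69 times for the dim probes of Ccna2 and Ube2c. NS5 array 4 was the lowest for 4 of the 9 genes and array 1 for 3, so that no array was the lowest throughout. The fitted size of the fall depended on the added constant. With 16 added in place of 99.01 and negative intensities set to 0, the log2 fold changes were -3.82 for Ccna2, -4.02 for Foxm1, -7.35 for Ccnb1, -6.65 for Cdc20, -5.60 for Aurka, -6.64 for Plk1, -6.31 for Cdca3 and -4.83 for Cdk1. In the authors' value table, which holds low values at a floor, they lay between -4.52 (Ccna2) and -8.24 (Ccnb1). The order of the members by fitted fold thus changed with the scale, Ccnb1 coming before Plk1 in both.

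**Figure D4:**
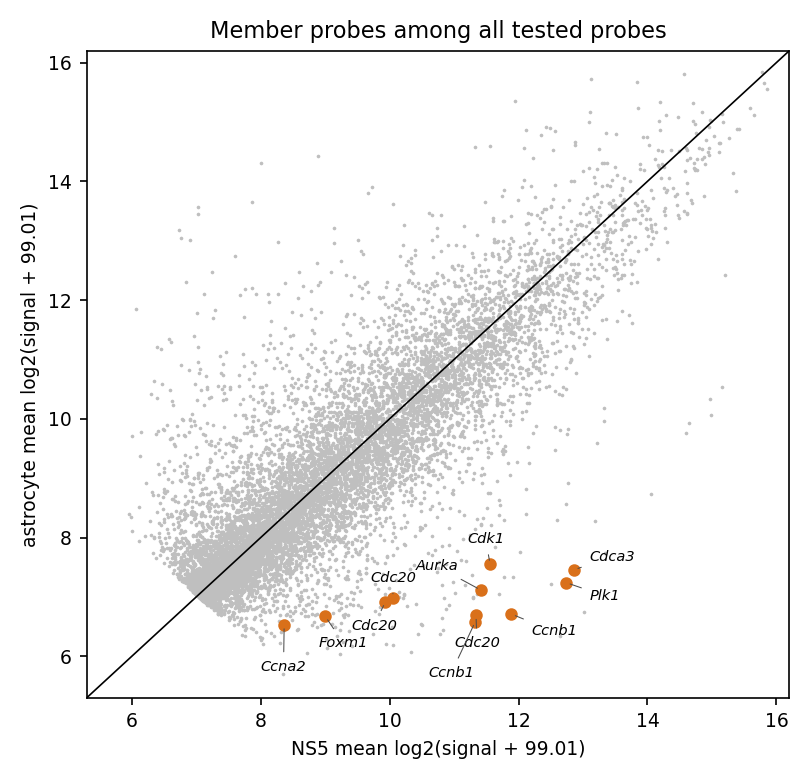
Mean normalized log2(signal + 99.01) in NS5 cells (horizontal) and astrocytes (vertical) for the 12306 tested probes (grey), with the 11 member probes in orange and the line of equal signal in black. The member probes lie below the line.

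Around the members, the genes of the same machinery were counted by role, each by its brightest tested probe, from 5 lists of 78 genes, of which 73 had a probe and 53 were tested. Of these 53, 38 were called lower and 5 higher, with a median log2 fold change of -0.75. Over all 9210 named genes, 30.4% were called lower and 30.1% higher by the same fit, with a median of -0.02. Of the 38 called lower, 11 were above background on all 4 NS5 arrays and on no astrocyte array: 5 of the APC/C activators, enzymes, inhibitors and substrates, 2 of the inputs to CDK1, 3 of the Polo and Aurora relatives and 1 of the promoter factors. These passed the filter through their NS5 signal alone and had to be lower. The same held for Mybl2 and Usp37, each above background on 1 astrocyte array. The counts and medians that follow thus describe the tested genes and not the whole lists.

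Among core subunits of the APC/C both directions were seen. Of 10 tested, 6 fell and 2 rose (median log2 fold change -0.25). Anapc15, a subunit that in human cells helps release the checkpoint complex, had 524 ± 47.3 units in NS5 cells and 144 ± 15.8 in astrocytes (SD, n = 4), a fall of log2 fold change -1.36 ± 0.08 (SE). The structural subunits Cdc16 and Anapc5 kept 54.5% and 63.3% of the NS5 signal, and Anapc5 had -0.65 and, by another probe, -0.90. In the opposite direction, Anapc16 rose from 2298 ± 207 to 3994 ± 623 units (SD, n = 4) and Anapc2, the cullin-like catalytic subunit, by 0.53 ± 0.07 on the log2 scale. The difference between this list and the 10 members was not tested.

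Of the other activator, the partner enzymes, the inhibitors and the substrates of the APC/C, 12 of 13 tested fell and 0 rose (median log2 fold change -1.52). The list and the 12 also hold Cul3, a cullin of other ligases with none of these roles, which kept 81.7%. Pttg1, the securin that holds separase until anaphase, gave no astrocyte signal over the limit and was at least 9.12-fold lower. The checkpoint proteins Mad2l1 and Bub1b, which restrain CDC20 until chromosomes are attached, were at least 7.78-fold and 5.07-fold lower. Mad2l2, a related protein with roles in DNA repair, had 643 ± 29.1 units in NS5 cells and 647 ± 131 in astrocytes (SD, n = 4) and did not pass the test (log2 difference -0.01 ± 0.12 SE, adjusted p = 0.959).

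Of the genes that set CDK1 activity, 5 of 11 tested fell and 1 rose (median log2 fold change -0.22). The phosphatase Cdc25c, which activates CDK1, was not above background in astrocytes and at least 3.30-fold lower, although its 3 tested probes ranged from -2.08 to -0.20 on the log2 scale. Cdc25a, of the same family, kept 16.5 ± 4.85% (SD, n = 4). Of the CDK-activating kinase, the cyclin Ccnh kept 52.9 ± 3.56% and the assembly factor Mnat1 was higher, by 0.31 ± 0.07 on the log2 scale (SE, adjusted p = 0.00216), a call that was lost with median centring (0.22, adjusted p = 0.127; over 18 alternatives the adjusted p ran from 7.69e-04 to 0.127).

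Relatives and partners of the Polo and Aurora kinases fell in 9 of 11 cases and rose in 1 (median log2 fold change -2.61). Birc5 (survivin), which sits with Aurora B at centromeres, had 2526 ± 54.5 units in NS5 cells and 34.4 ± 14.7 in astrocytes (SD, n = 4). Only 2 of the 4 astrocyte arrays were above background, and 1.36% was kept with the signals as they stood. The 3 probes of Birc5 ran from -4.82 to -4.25 on the log2 scale. Aurkb was at least 6.31-fold lower. Tpx2, the activator of Aurora A on the spindle, kept 7.32 ± 1.32%, more than the 1.49 ± 0.414% of Aurka itself. Aurka was above background on 2 astrocyte arrays, and the 4 arrays of the pair did not overlap. Fry, a large protein reported in human cells to bind PLK1 and Aurora A, rose from 111 ± 47.6 to 274 ± 38.4 units (SD, n = 4), or by 0.85 ± 0.14 (SE) in log2.

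Of the MuvB, MYB, DREAM and NF-Y factors that act at such promoters, 6 of 8 tested fell and 1 rose (median log2 fold change -0.88). Rbl1 (p107), a pocket protein of the DREAM repressor, had no astrocyte array over the limit and was at least 3.69-fold lower. Tfdp1, a partner of E2F factors, kept 27.1 ± 4.54% (SD, n = 4), and Mybl2 (B-MYB) fell from 173 ± 28.8 to 20.7 ± 12.1, above background on 1 astrocyte array, with log2 fold changes of -1.18 and -0.47 by its 2 probes. Tfdp2 was higher by 0.44 ± 0.10 (SE) on its brightest probe, while its 3 probes ran from -0.16 to 0.44. The list names 16 genes, of which 14 had a probe and 8 passed the filter.

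**Figure D5:**
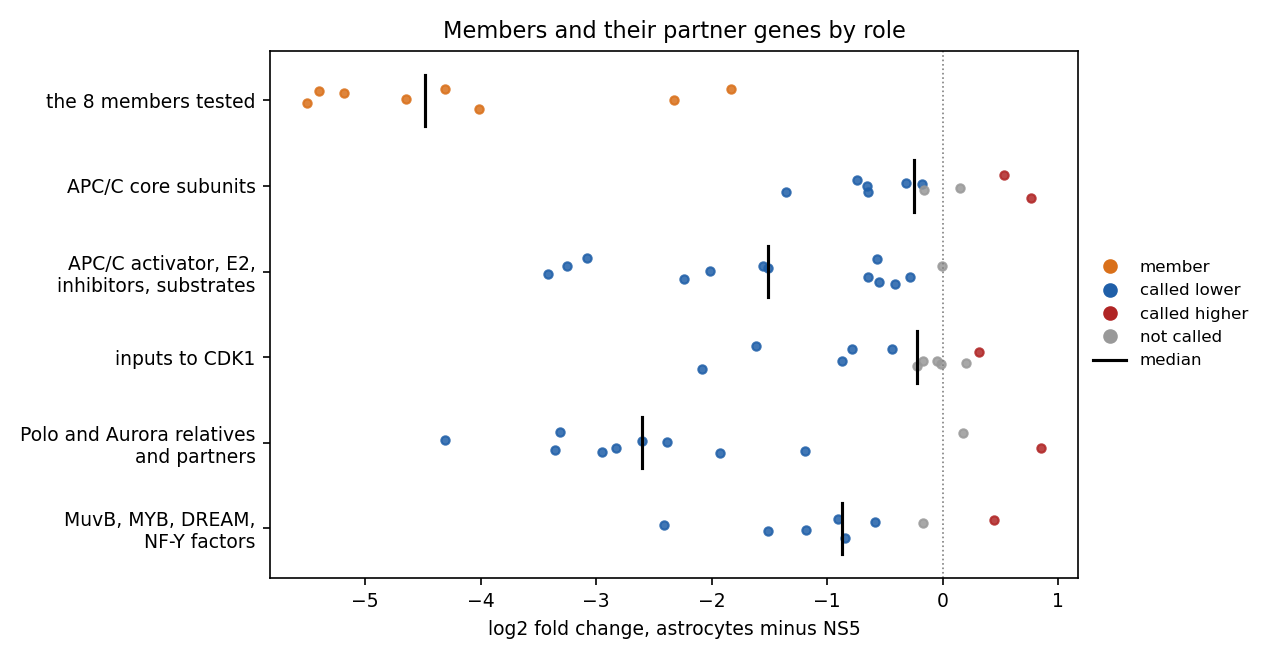
Log2 fold changes, astrocytes minus NS5, for the 8 tested members (orange) and for tested partner genes in 5 lists by role, with blue for genes called lower, red for genes called higher, grey for genes not called and a black line for each median. The APC/C core subunits and the inputs to CDK1 lie near 0 (medians -0.25 and -0.22), and the Polo and Aurora relatives lowest among the partner lists (-2.61).

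The genes whose pattern over the 8 arrays was most like the mean of the 8 tested members were Birc5 (Pearson r = 0.9997), Gfpt2 (0.9992), Dcpp1 (0.9992), D17H6S56E-5 (0.9992) and Slc29a4 (0.9991). These r describe 8 arrays in 2 groups and rest on the gap between the groups. The sizes of the fall differed, since Slc29a4 kept 27.1 ± 1.81% of its NS5 signal and Birc5 1.36 ± 0.584% (SD, n = 4). For Birc5 only 2 astrocyte arrays were above background.

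Markers were read beside these results. Of 7 astrocyte markers with a probe, 4 were above background in NS5 cells and 6 in astrocytes. Their summed signal was 17292 to 19865 units in NS5 cells and 51702 to 69868 in astrocytes. Gfap and Aqp4 were not above background in NS5 cells and reached 2320 ± 944 and 5002 ± 937 units (SD, n = 4) in astrocytes. Slc1a3, Gja1 and Aldoc had signal in both groups and were called higher in astrocytes (log2 fold change 1.18, 1.36 and 1.80). S100b had signal in both and was not called (0.35, limma adjusted p = 0.131), while Slc1a2 stayed at background in both groups. Of 8 neural stem cell markers, 5 were above background in NS5 cells and 6 in astrocytes, and Pax6 in neither. Their summed signal was 20266 to 23122 units in NS5 cells and 43451 to 44453 in astrocytes. Most of it came from the bright probe of Vim, with 18750 ± 894 and 41521 ± 469 units (SD, n = 4). The sum thus follows Vim and does not describe the other markers. Prom1 (log2 fold change 2.46), Vim (1.14) and Sox2 (0.70) were called higher in astrocytes, and Olig2 (-1.70) and Nes (-0.63) lower. Of other cell types, 0 of 4 microglia markers were above background in either group, and Col1a1, Col1a2, Col3a1, Pecam1, Cdh5 and Kdr were below it on every array. Fibroblast and pericyte markers summed to 62.3 to 132 units in NS5 cells and 86.7 to 132 in astrocytes, with 1 and 2 of 6 above background. Endothelial markers summed to 109 to 144 and 97.1 to 153 units, also with 1 and 2 of 6 above background. Oligodendrocyte markers moved with the groups, with a summed signal of 212 to 328 units in NS5 cells and 1073 to 1709 in astrocytes, 2 and 4 of 6 markers above background and Mog and Sox10 on no array. Neuron markers summed to 809 to 967 and 684 to 838 units, with 4 of 5 markers above background in each group and Dcx in neither. The part of these cell types in the mitotic results was not tested.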

How the data were processed

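The authors deposited a scanner table of probe intensities on a linear scale. It holds negative values and no detection p, so a background had been subtracted already, by a method not given in the sources used here. RNA was amplified by in vitro transcription (TotalPrep, Illumina) with a biotin label, per the labels' protocols. The authors' value table holds log2 values, which equal the intensities raised to at least 10, log2 transformed and quantile normalized, within 4.99e-09, and served as an alternative. Array medians were 28.0 to 33.0 units.

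A constant of 99.01 was added to all intensities (lowest value then 16), which were log2 transformed and quantile normalized. Probes with a mean above the median of all probes were tested singly (12306) with limma 3.58.1 in R 4.3.3 (lmFit, eBayes, group alone), with Benjamini-Hochberg adjustment over all of them. The background limit was 1.645 times the quadratic mean of an array's negative signals. The test was checked on simulated data. Symbols came from the platform annotation or, for 687 probes, from RefSeq accessions. Replicate numbers were not used to pair the samples in the main fit. The alternatives were other normalizations, constants, filters, probe summaries, array weights, a replicate block and each array left out. No slide or scan date was given.

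The members and lists were chosen with earlier results of these data known. All members are named, and from each partner list the lowest and highest gene, the next 2 called genes by size and those called against the majority.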

Additional observations from a re-analysis of the deposited data

Results flagged for a closer look

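Plk1 (probe ILMN_1255053) had an astrocyte signal of 37.2 units on array 1, far from the 57.2 to 58.0 of the other 3 arrays. It was the 1 group of 4 arrays, of 18 examined over the member probes, in which a single array stood apart by Dixon's criterion. The 18 were not all the groups of the member probes. On Cdc20 probe ILMN_2717187, with no astrocyte array above background, array 1 was also low, at 23.5 units against 28.6 to 29.2. Chance flags about 1 in 20 groups.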

How the results depend on the processing

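The calls on the 11 tested member probes kept their direction and their side of the threshold under median centring, cyclic loess, an added constant of 16, the authors' value table, array weights, the replicate block and without any 1 of the 8 arrays (11 called lower each time). Without a filter 13 were called, with probes above background on at least 4 arrays 12, and by gene 8. The partner genes called ranged from 42 to 45 (43 in the report) over 18 alternatives. The median percent of NS5 signal kept by the members was 0.775% with the signals as they stood, also those below background. It moved to 1.49% in the authors' value table, which sets low values to 10. With the mean of all probes of a gene it moved to 1.20%, and without astrocyte array 1 to 0.0188%. The range was 0.0188% to 0.810% with 1 array left out. The cause was not tested. For the 4 members without astrocyte signal above background, the limit allows only an upper bound. Over 18 alternatives the log2 fold change ran from -4.52 to -1.76 for Ccna2, from -8.24 to -4.96 for Ccnb1, from -4.66 to -2.16 for Foxm1 and from -6.58 to -5.34 for Cdca3. Mnat1 was no longer called with median centring (0.22, adjusted p = 0.127). Arrays of the same replicate number correlated at -0.06 to 0.16 between groups, and not every array correlated best with its own number. With 4 arrays per group, these values cannot settle whether the numbers pair the samples. The replicate block gave 11 member probes called lower, 43 partner genes called (37 lower, 6 higher, against 38 and 5) and a median of 0.775%, and changed no call on a member.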
